A study of Mus musculus with 6 samples.

Results

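The 9 genes described here are members of the Notch pathway in mouse bladder mucosa. They are the receptors Notch1, Notch2 and Notch3, the ligands Jag1, Jag2 and Dll4, and the targets Hes1, Hey1 and Heyl. They were chosen by name and matched by Ensembl identifier in 6 single-cell RNA-seq tables, which together listed 14450 genes in every library. Of the 9, 8 were listed in all 6 libraries, and Heyl was listed in the tables of replicate 2 of each condition and was analysed in those 3 libraries.

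Notch receptors are single-pass membrane proteins that are activated by ligands on a neighbouring cell. Ligand binding leads to cleavage of the receptor, and its intracellular part then joins the DNA-binding protein RBPJ in the nucleus and switches on target genes such as those of the Hes and Hey families. In blood vessels Dll4 is known as an endothelial ligand and Notch3 as the receptor of mural cells, and in stratified epithelia the pathway is known for its part in differentiation.

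Mice were wild-type C57BL/6 animals of 8 weeks, and the mucosa of each bladder was separated from the muscle before dissociation. The healthy group was not given cyclophosphamide (CPP), a drug whose breakdown products injure the bladder lining. Mice of the acute group were examined 48 hours after CPP, and mice of the chronic group received 4 rounds over 11 days. Each condition had 2 libraries made with the 10x 3′ kit, described as biological replicates, and how the mice of a condition were divided between them is not given in the sources used here, so p-values measure the spread between these libraries. The model shows the response to 1 chemical in whole mucosa, in which the numbers of cells of each type recovered also varied between libraries.

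The 6 tables held between 5348 and 15062 cell barcodes and between 54604109 and 111985678 unique molecular identifiers (UMIs, each a counted mRNA molecule). Of 55398 cells that passed the filter on genes and mitochondrial UMIs, 50041 were kept, and between 36 and 229 barcodes were shared by any pair of libraries (at most 2.28% of the smaller). Cells were clustered without the members or the other Notch genes among the clustering genes, and classes were named from marker genes. The classes compared were 6477 basal, 21573 intermediate and 3129 superficial urothelial cells, 4905 fibroblasts, 3954 myofibroblasts, 485 endothelial cells and 179 mural cells. Cycling urothelial cells (4486) and an unnamed group of urothelial cells (2439) were kept apart. In endothelial cells all 9 endothelial markers were detected, with a summed level of 2105 to 7344 CPM (the UMIs of a gene per 1000000 UMIs of its class), against at most 26.3 CPM in fibroblasts. Class UMIs were counted over the 14338 genes listed in every library that are neither mitochondrial nor ribosomal. The part left out differed between classes. In healthy replicate 1 the median cell held 8025.5 UMIs over all genes and 3808 over these in basal cells. In fibroblasts of that library it held 4503 and 3309, so CPM of different classes rest on unlike shares of their UMIs. In the cluster named mural, 7 of the 9 mural markers were detected in at least 25% of cells. The 9 mural markers summed to 2437 CPM in acute replicate 1 and 5738 CPM in acute replicate 2, the 2 mural libraries tested. The urothelial markers in the same cells summed to 4835 and 2735 CPM.

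The level of a member in a class is the sum of its UMIs over the cells of that class in 1 library, as CPM. A class entered a test in a library only with at least 20 cells. This left 5 endothelial libraries (all but healthy replicate 2, with 15 cells), 5 fibroblast libraries (all but chronic replicate 2, with 19 cells) and 2 mural libraries (both acute, with 22 and 119 cells). The quasi-likelihood test of edgeR was fitted over all genes with the library as a block. Fold changes are given on the log2 scale with a standard error (SE). This SE was derived from the test, as the absolute log2 fold change over the square root of the F statistic. UMIs from the 3′ end do not allow levels of different genes to be set against each other, so each gene is compared only with itself.

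The promoter windows of 3 members are shown because the results below turn on where these members were highest: Dll4 in endothelial cells, Notch3 in mural cells and Jag2 in the basal layer of the urothelium. They run from 250 bases before to 50 bases after the start of the gene in RefSeq (GRCm38.p6), and capitals mark CG dinucleotides. The gene coordinates given further below come from GENCODE, whose starts can differ from those of RefSeq. By GENCODE the whole Jag2 window lies inside the gene, whose 5′ end is at 112929776. The Dll4 window is chr2:119325534-119325833 on the plus strand, the Notch3 window is chr17:32166841-32167140 on the minus strand and the Jag2 window is chr12:112929446-112929745 on the minus strand. Each is written 5′ to 3′ on the strand of its gene.
Dll4: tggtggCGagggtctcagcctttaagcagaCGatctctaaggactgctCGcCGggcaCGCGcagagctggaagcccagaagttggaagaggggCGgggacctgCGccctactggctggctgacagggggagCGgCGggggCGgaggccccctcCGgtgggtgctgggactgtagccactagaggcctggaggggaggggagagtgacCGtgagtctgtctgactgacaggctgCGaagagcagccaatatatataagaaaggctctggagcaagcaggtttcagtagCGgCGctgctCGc
Notch3: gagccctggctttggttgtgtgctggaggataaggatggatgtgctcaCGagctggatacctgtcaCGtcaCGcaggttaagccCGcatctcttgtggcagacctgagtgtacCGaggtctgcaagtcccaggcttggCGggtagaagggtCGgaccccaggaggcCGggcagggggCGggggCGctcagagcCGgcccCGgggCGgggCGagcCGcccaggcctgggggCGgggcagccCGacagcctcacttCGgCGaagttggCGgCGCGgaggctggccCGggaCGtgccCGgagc
Jag2: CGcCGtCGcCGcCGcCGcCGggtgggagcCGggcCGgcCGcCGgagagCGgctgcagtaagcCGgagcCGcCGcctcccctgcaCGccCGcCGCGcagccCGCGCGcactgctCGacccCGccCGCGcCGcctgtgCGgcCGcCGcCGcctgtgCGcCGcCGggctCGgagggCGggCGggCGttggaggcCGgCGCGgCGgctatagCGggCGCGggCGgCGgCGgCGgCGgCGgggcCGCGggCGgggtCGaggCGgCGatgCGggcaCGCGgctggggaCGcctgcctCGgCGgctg

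The Jag2 window held 63 CG dinucleotides, the Notch3 window 25 and the Dll4 window 17, against a median of 7 over 32851 promoter windows of the same length. Windows were found for 6 of the 9 members, and those of Notch1, Notch2 and Jag1 held 23, 41 and 22. By the GENCODE coordinates the Notch1 window, like that of Jag2, lies inside its gene. The core letters of the RBPJ motif, TGGGAA, were searched on both strands (TTCCCA on the other). They occurred in 0 of the 6 member windows and in 25.6% of all windows, which says only that these letters were not in these 300 bases.

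**Figure D1:**
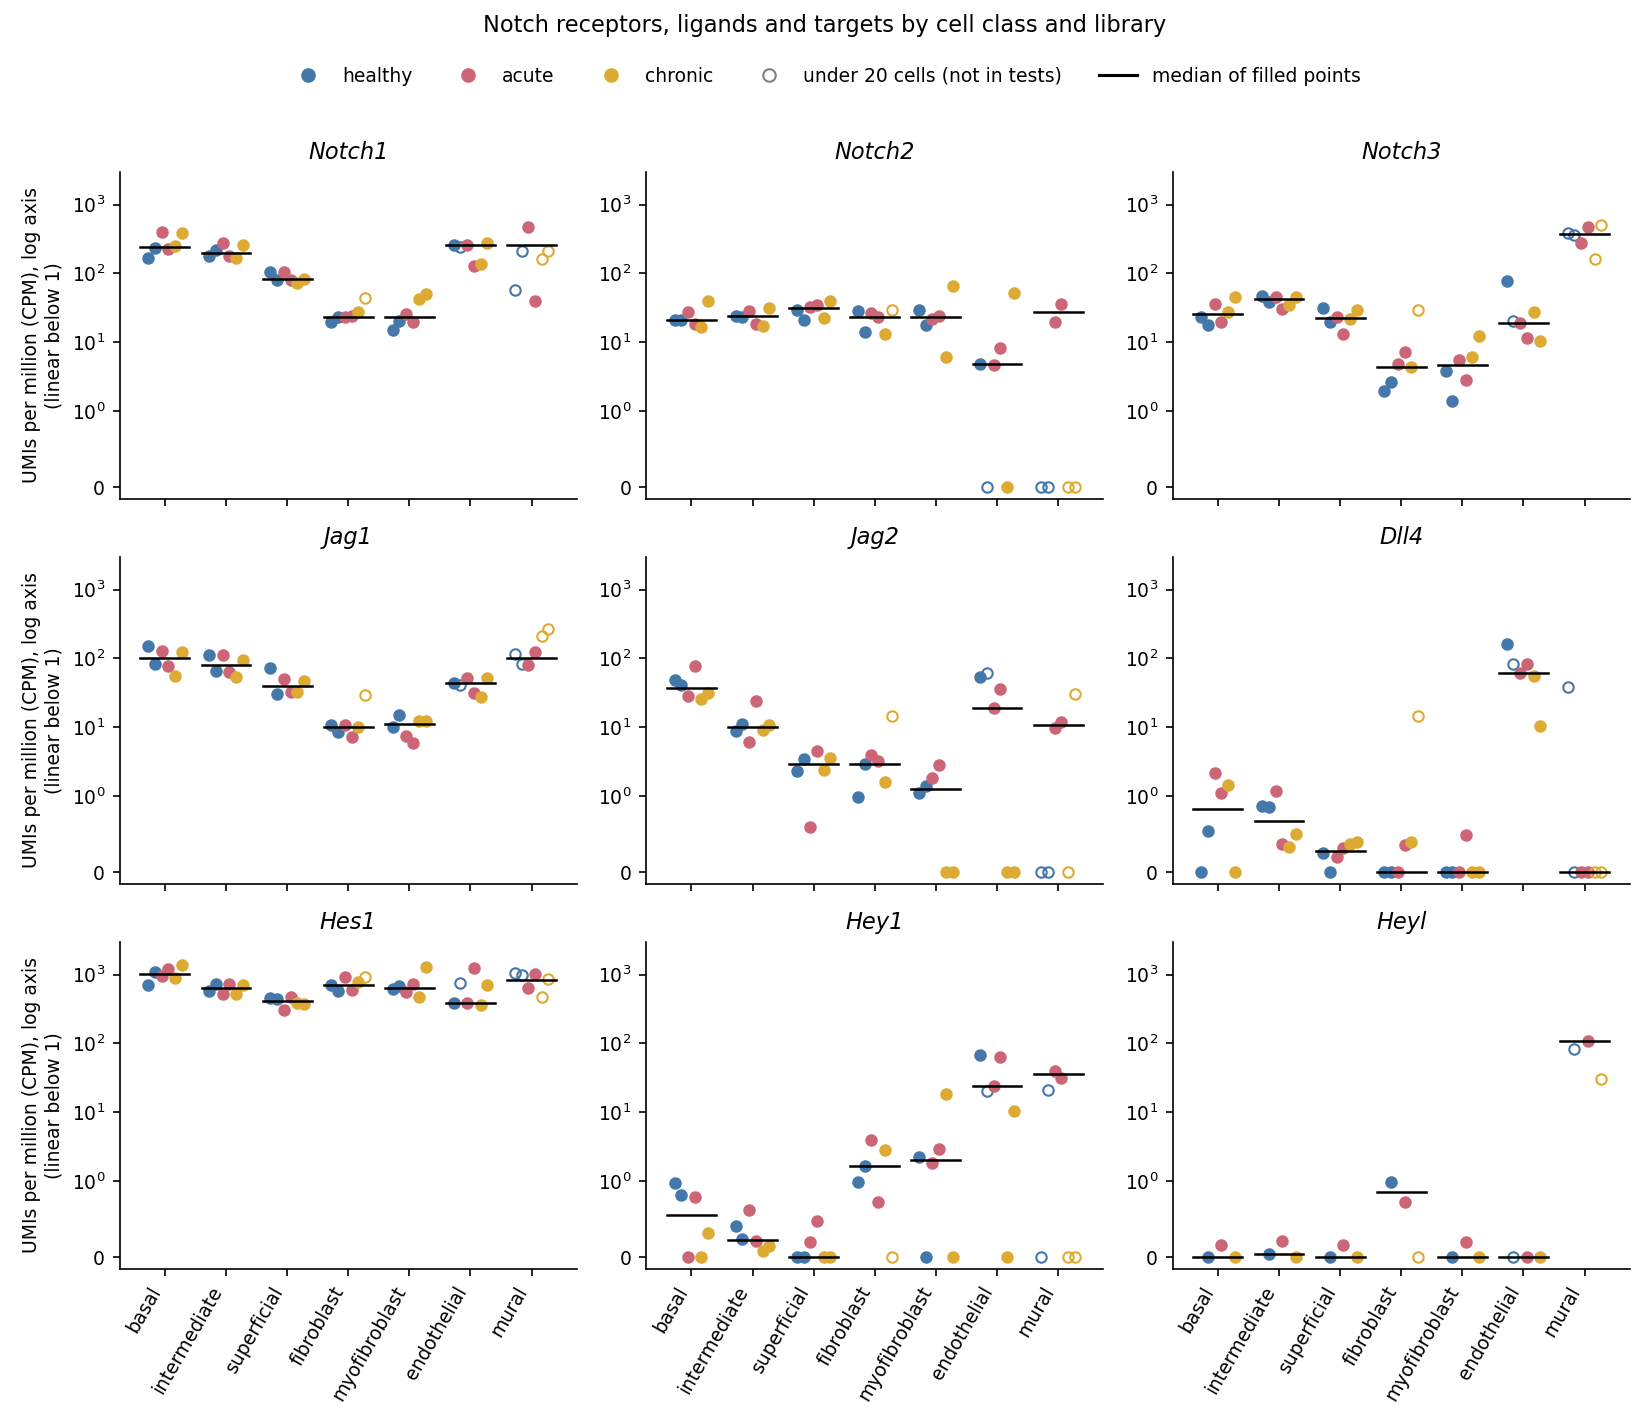
Level of each of the 9 members (CPM, symmetric log axis) by cell class, with 1 point per library; open points are class sums of under 20 cells, which entered no test. Among sums of at least 20 cells of the 7 classes drawn, Dll4 was above 2.18 CPM in endothelial cells alone, Notch3 was highest in mural cells, and Notch1, Jag1 and Hes1 were present in all 3 urothelial layers.

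Notch1 (chromosome 2, 26457903 to 26516663, minus strand, GRCm38), a receptor known in stratified epithelia, was detected in all 7 classes. In basal cells the lowest, median and highest library had 166, 240 and 394 CPM, and in intermediate cells 168, 201 and 280 CPM. In superficial cells the range was 72.1 to 106 CPM with a median of 82.6, below every library of the other layers. Endothelial cells had 255 CPM in healthy replicate 1, 260 and 130 CPM in the acute libraries and 139 and 274 CPM in the chronic libraries. These values overlapped those of basal and intermediate cells. Within the endothelial class, Notch1 was 336 CPM (37 UMIs) in a sub-cluster led by the mural genes Rgs5 and Cox4i2 and 288 CPM (86 UMIs) in 1 led by haemoglobin genes and urothelial genes such as Cldn4. The arterial-like and venous-like sub-clusters had 162 and 116 CPM, below the lowest basal and intermediate library. Fibroblasts (19.98 to 27.6 CPM) and myofibroblasts (14.9 to 49.4 CPM) had the lowest levels and overlapped each other. In mural cells Notch1 was 474 CPM in acute replicate 1 and 39.4 CPM in acute replicate 2, and 68 of the 81 mural Notch1 UMIs of all 6 libraries lay in 1 mural sub-cluster of 33 cells that was led by urothelial genes such as Prom2 and Krt4.

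Notch2 (chromosome 3, 98013527 to 98150361, plus strand), a receptor with broad expression, was detected in all 7 classes. The median was 21.1 CPM in basal, 23.8 CPM in intermediate and 31.1 CPM in superficial cells, with ranges that overlapped. Fibroblasts had a median of 23.0 CPM and myofibroblasts of 22.9 CPM. Endothelial cells had 12 Notch2 UMIs in all, with 4.81 CPM in healthy replicate 1, 4.73 and 8.24 CPM in the acute libraries, and 0 and 52.6 CPM in the chronic libraries. The last of these values rests on 5 UMIs and was above the median of every other class, whereas the other endothelial libraries were below the lowest basal, intermediate and superficial library.

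Notch3 (chromosome 17, 32120820 to 32166852, minus strand), the receptor of vascular mural cells, was highest in mural cells. The tested mural libraries had 276 and 469 CPM, and the 4 mural sums of under 20 cells had between 160 and 508 CPM. All 6 were above the highest library of every other class, which was 77.0 CPM in endothelial cells of healthy replicate 1. Intermediate cells followed with 30.3 to 46.4 CPM and a median of 42.01, and basal cells (median 25.3 CPM) and superficial cells (median 22.6 CPM) overlapped. In fibroblasts and myofibroblasts the highest libraries were at 7.20 and 12.4 CPM. A Notch3 UMI was found in 72.7% of mural cells of acute replicate 1 and 60.5% of those of acute replicate 2, against at most 1.66% of fibroblasts in any library. With every cell thinned to 2000 UMIs and shallower cells left out, the share was 36.4% in acute replicate 1 and 59.7% in acute replicate 2, and at most 1.72% in fibroblasts.

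Jag1 (chromosome 2, 137081456 to 137116644, minus strand), a ligand of the Serrate type, was found in urothelial, mural and endothelial cells. Basal cells had 55.3, 103 and 149 CPM in the lowest, median and highest library, intermediate cells 54.0, 80.3 and 114 CPM, and superficial cells 29.96, 40.2 and 73.7 CPM. The mural libraries had 78.9 and 122 CPM, within the basal range, and the endothelial libraries between 27.8 and 52.6 CPM, overlapping the superficial range. Fibroblasts (median 9.99 CPM) and myofibroblasts (median 11.2 CPM) were lower than every library of the other classes.

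Jag2 (chromosome 12, 112907819 to 112929776, minus strand), the other ligand of the Serrate type, fell stepwise through the urothelium. Basal cells had 25.5, 36.5 and 78.0 CPM in the lowest, median and highest library, intermediate cells 6.07, 10.0 and 24.3 CPM, and superficial cells 0.597, 2.93 and 4.45 CPM. The ranges of the 3 layers did not overlap. Endothelial cells had 52.9 CPM in healthy replicate 1, 18.9 and 36.2 CPM in the acute libraries and 0 UMIs in both chronic libraries. Fibroblasts (median 2.95 CPM) and myofibroblasts (median 1.24 CPM) overlapped the superficial range, and mural cells held 4 Jag2 UMIs in the 2 tested libraries.

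Dll4 (chromosome 2, 119325784 to 119335962, plus strand), the Delta-type ligand of endothelial cells, was highest there. Endothelial cells had 164 CPM in healthy replicate 1 (34 UMIs), 61.5 and 82.4 CPM in the acute libraries (13 and 50 UMIs) and 55.5 and 10.5 CPM in the chronic libraries (4 and 1 UMIs). Every endothelial library was above the highest library of any urothelial layer, which was 2.18 CPM. Over the tested libraries together, endothelial cells had 102 Dll4 UMIs in 1193320 (85.5 CPM), which was 103-fold above basal, 130-fold above intermediate, 297-fold above superficial cells and 264-fold above myofibroblasts. Fibroblasts held 2 Dll4 UMIs, and the 5 of myofibroblasts all came from acute replicate 2. The tested mural libraries, both acute, held 0 UMIs in 355082. The endothelial level pooled over all conditions was 10.1-fold above the floor of 3 counts over both mural libraries. The acute endothelial libraries, at 61.5 and 82.4 CPM, were both below that pooled level. A Dll4 UMI was found in 4.35 to 35.3% of endothelial cells and in at most 0.0852% of fibroblasts.

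Hes1 (chromosome 16, 30064384 to 30067796, plus strand), a transcriptional repressor that also answers to other pathways, was present in all 7 classes. Basal cells had 698, 1022 and 1361 CPM in the lowest, median and highest library, intermediate cells 515, 634 and 741 CPM, and superficial cells 308, 410 and 466 CPM. Fibroblasts (median 714 CPM) and myofibroblasts (median 640 CPM, lowest and highest library 474 and 1277 CPM) overlapped basal and intermediate cells. Endothelial cells had 380 CPM in healthy replicate 1, 383 and 1255 CPM in the acute libraries and 361 and 695 CPM in the chronic libraries, a wider spread than in any urothelial layer.

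Hey1 (chromosome 3, 8663359 to 8667256, minus strand), a target known in developing and growing vessels, had its highest levels in endothelial and mural cells. Endothelial cells had 67.4 CPM in healthy replicate 1, 23.7 and 62.6 CPM in the acute libraries, and 0 and 10.5 CPM in the chronic libraries, the last resting on 1 UMI. The mural libraries had 39.5 and 31.5 CPM, from 4 and 8 UMIs. No library of the 3 urothelial layers was above 0.975 CPM, and fibroblasts were between 0.720 and 3.88 CPM. Myofibroblasts were between 0 and 2.86 CPM in 5 libraries and at 18.2 CPM in chronic replicate 1, which rests on 3 UMIs and was above both chronic endothelial libraries.

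Heyl (chromosome 4, 123233556 to 123249875, plus strand), a target known in smooth muscle and pericytes, was found mainly in mural cells of the 3 libraries analysed. Acute replicate 2 had 27 Heyl UMIs in its mural cells (106 CPM). In the same library, endothelial cells had 0 UMIs in 607133, and intermediate cells had 4 UMIs in 18670165. The mural level was 21.5-fold above the endothelial floor of 3 counts. Mural cells of healthy replicate 2 and chronic replicate 2, each under 20 cells, held 4 and 1 UMIs. With 1 tested mural library no test was made for Heyl.

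The first comparison asked how the members differed between the urothelial layers, from the basal cells on the basement membrane to the superficial cells that face the urine. Jag2, Hes1 and Jag1 were higher in basal than in intermediate and higher in intermediate than in superficial cells in 6 of 6 libraries. Of the 8 members listed in all libraries, 6 passed the filter on low counts here, and Dll4 and Hey1 did not.

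Between basal and intermediate cells 4 of the 6 tested members were called at an adjusted p under 0.05, beside 40.9% of all 11444 genes tested, so the count itself sets the members little apart. Jag2 was higher in basal cells by 1.84 ± 0.11 on the log2 scale (3.59-fold, adjusted p = 5.01e-11). Hes1 was higher by 0.65 ± 0.09 (adjusted p = 9.78e-06) and Jag1 by 0.23 ± 0.07 (adjusted p = 0.00737). Notch3 was lower in basal cells by 1.57-fold (log2 −0.65 ± 0.12, adjusted p = 0.000154), and basal cells had the higher level in 1 of 6 libraries. Without the library block the calls of Jag1 (adjusted p = 0.604) and Notch3 (adjusted p = 0.0570) were lost. Notch1 was 0.27 ± 0.11 higher in basal cells with an adjusted p of 0.0544, and it was higher in 5 of 6 libraries. It was called in 5 alternatives, 2 of which left out healthy replicate 1 (adjusted p = 0.00116) or healthy replicate 2 (adjusted p = 0.0495). Notch2 differed by −0.08 (95% interval −0.28 to 0.11).

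Between superficial and intermediate cells all 6 tested members were called, beside 56.1% of all genes. Jag2 was lower in superficial cells by 4.02-fold (log2 −2.01 ± 0.20, adjusted p = 2.56e-08), Notch1 by 2.24-fold (−1.17 ± 0.12, adjusted p = 3.00e-08) and Jag1 by 1.77-fold (−0.82 ± 0.07, adjusted p = 2.25e-09). Notch3 was lower by 1.67-fold (−0.74 ± 0.12, adjusted p = 1.94e-05) and Hes1 by 1.44-fold (−0.53 ± 0.10, adjusted p = 7.15e-05), each in 6 of 6 libraries. Notch2 was the 1 member higher in superficial cells (0.46 ± 0.09, adjusted p = 0.000226). Its call was lost without the library block (adjusted p = 0.0746), with clusters formed without integration (log2 0.01, adjusted p = 0.929) and with the unnamed urothelial cells put back (log2 0.14, adjusted p = 0.149).

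Between basal and superficial cells 5 of 6 members were called, beside 65.9% of all genes. The basal level was 14.4-fold higher for Jag2 (log2 3.85 ± 0.18, adjusted p = 8.75e-14), 2.71-fold for Notch1, 2.27-fold for Hes1 and 2.07-fold for Jag1, with adjusted p-values from 4.31e-11 to 8.20e-10. Notch2 was lower in basal cells (−0.55 ± 0.11, adjusted p = 0.000146), and this call was also lost with clusters formed without integration (−0.14, adjusted p = 0.243). Notch3 differed by 0.09 between these layers, with a 95% interval of −0.18 to 0.37, so that its highest urothelial level was in the middle layer.

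**Figure D2:**
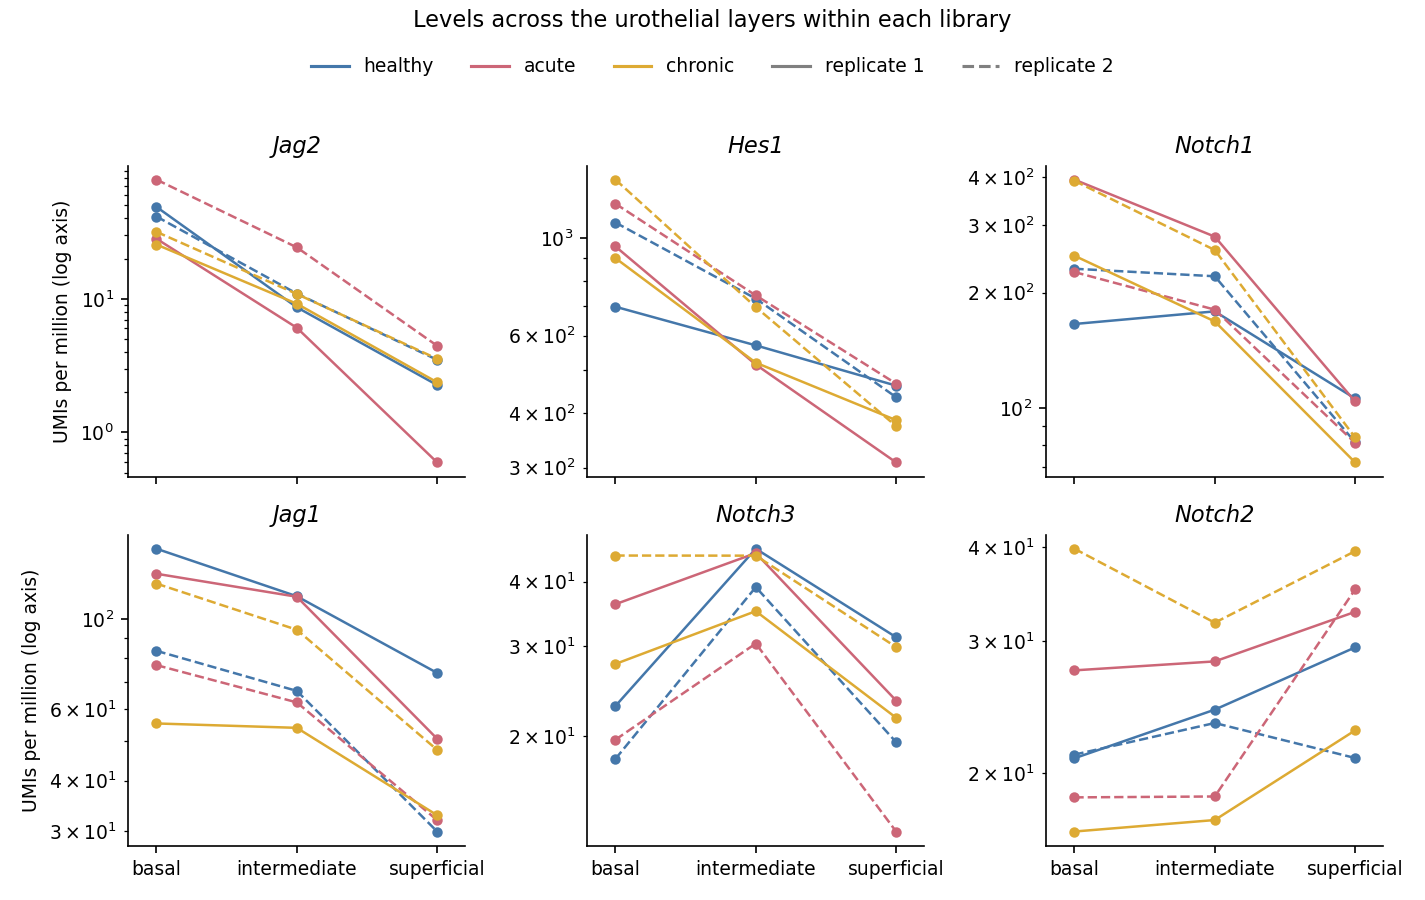
Level (CPM, log axis) of the 6 tested members in basal, intermediate and superficial cells, with 1 line per library coloured by condition. Jag2, Jag1 and Hes1 fall from left to right in every library, Notch3 peaks in intermediate cells in 5 of 6 libraries, and Notch2 overlaps between the 3 layers, at 16.7 to 39.8 CPM in basal, 17.3 to 31.7 CPM in intermediate and 20.97 to 39.5 CPM in superficial cells.

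The other genes of the pathway were described from a list of 47, of which 40 were tested in the layers. In basal against intermediate cells 15 rose and 7 fell, beside 21.3 and 19.6% of all genes, with a median log2 difference of 0.14 against 0.01 over all genes. The ligand Dll1 (2.93 ± 0.17, adjusted p = 1.29e-11) and the atypical ligand Dlk2 (3.73 ± 0.15, adjusted p = 3.52e-13) rose most, and Lfng, a glycosyltransferase that modifies the receptors, rose by 1.94 ± 0.23 (adjusted p = 8.89e-07). Dll1 had a median of 17.5 CPM in basal, 2.504 CPM in intermediate and 0.298 CPM in superficial cells. Nrarp, a feedback target of the pathway, went the other way and was lower in basal cells (−1.05 ± 0.10, adjusted p = 3.28e-08), with medians of 61.5, 128 and 127 CPM through the layers. In superficial against intermediate cells 6 rose and 21 fell, beside 28.6 and 27.5% of all genes. Neurl1a, a ubiquitin ligase that acts on ligands, fell by 2.186 ± 0.47 and Dll1 by 1.97 ± 0.38. The Hes family gene Hes2 fell by 1.76 ± 0.35 and Dlk2 by 1.68 ± 0.39. The adjusted p-values of these genes ran from 0.000167 to 0.000892. Against superficial cells, basal cells were higher for 21 and lower for 9 of the 40 genes, beside 32.7 and 33.1% of all genes.

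The next comparison set each vascular class against the mean of the other classes. In endothelial cells 5 of the 8 members tested were called, beside 26.3% of all 13247 genes. Dll4 was higher (adjusted p = 1.98e-16, with the sizes given above), Hey1 was higher by 4.81 ± 0.45 (adjusted p = 5.78e-11), Jag2 by 1.89 ± 0.39 (adjusted p = 0.000267) and Notch1 by 0.90 ± 0.20 (adjusted p = 0.000756). The calls of Jag2 and Notch1 are against the mean of the classes and not against the basal layer. Endothelial Jag2 and Notch1 were each above basal cells in 1 of 5 libraries, and Notch1 was above intermediate cells in 2 of 5. With the endothelial sub-clusters led by mural and collagen genes and 1 mural sub-cluster left out, and sums of at least 10 cells allowed, as an alternative chosen after seeing the data, Notch1 was 0.90 ± 0.21 higher (adjusted p = 0.00103), and the part of the sub-cluster led by haemoglobin and urothelial genes was not tested. Notch2 was 3.08-fold lower (−1.62 ± 0.41, adjusted p = 0.00234), and this call was lost without acute replicate 2 (−1.35, adjusted p = 0.148). Hes1 was −0.45 ± 0.20 with an adjusted p of 0.0900, and it was called without acute replicate 2 (−0.84 ± 0.19, adjusted p = 0.00158). Jag1 had −0.25 (95% interval −0.71 to 0.21) and Notch3 had −0.09 (95% interval −0.93 to 0.76), and with the same sub-clusters left out Notch3 was called lower (−1.46 ± 0.51, adjusted p = 0.0311). The endothelial sub-cluster led by mural genes held most endothelial Notch3 UMIs and had Notch3 among its leading genes. Leaving it out lowers Notch3 by construction, so this call is no separate result. The median difference of all genes was −0.12 here, and 0.01 with another scaling (RLE factors). Of the genes called 53.2% were higher in endothelial cells, against 66.9% with RLE factors and 69.8% with DESeq2, and the 5 member calls kept their directions in each.

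In mural cells 3 of the 8 members were called, beside 10.9% of all genes. Notch3 was 27.0-fold higher (4.76 ± 0.32, adjusted p = 2.22e-14), Hey1 was higher by 4.26 ± 0.85 (adjusted p = 0.000414) and Jag1 by 1.70 ± 0.30 (adjusted p = 7.36e-05). The mural sub-cluster led by urothelial genes held 12 of the 22 mural cells and 6 of the 8 mural Jag1 UMIs of acute replicate 1, against 3 of 119 cells and 0 of 31 UMIs in acute replicate 2, and its part in the call of Jag1 was not tested. Notch1 was 0.73 ± 0.34 higher with an adjusted p of 0.204, and it was called with DESeq2 (adjusted p = 0.0408) and with called doublets kept (adjusted p = 0.0481). Without acute replicate 2 the mural group was the 22 cells of acute replicate 1, whose spread was then taken from the other classes. In that fit Jag1 (0.68, adjusted p = 0.813) and Hey1 (4.64, adjusted p = 0.104) lost their calls, Notch3 had 3.76 ± 0.51 (adjusted p = 4.97e-06), and Notch1 gained a call (1.76 ± 0.37, adjusted p = 0.00331). In this library 12 of the mural cells were in the sub-cluster led by urothelial genes, which held 68 of the 81 mural Notch1 UMIs of all libraries. The median of all genes was −0.23, and −0.03 with RLE factors. Of the genes called 64.5% were higher in mural cells, against 82.1% with RLE factors and 87.8% with DESeq2.

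Of the 43 other pathway genes tested, 7 rose and 4 fell in endothelial cells, beside 14 and 12.3% of all genes. The glycosyltransferase Mfng (7.85 ± 0.32, adjusted p = 2.99e-21), the receptor Notch4 (4.84 ± 0.56, adjusted p = 1.21e-08), Lfng (4.66 ± 0.55, adjusted p = 2.02e-08) and the ligand Dll1 (2.67 ± 0.55, adjusted p = 0.000247) were among those that rose. Mfng lay between 41.7 and 140 CPM in the endothelial libraries and reached at most 0.593 CPM in any library of the 3 urothelial layers. In mural cells 5 rose and 1 fell, beside 7.06 and 3.89% of all genes. These included the atypical ligand Dlk1 (6.39 ± 0.89, adjusted p = 2.36e-06) and Nrarp (2.02 ± 0.29, adjusted p = 2.84e-06), which had 247 and 248 CPM in the 2 mural libraries. The rise of Dlk1 rests on few UMIs, with 1, 4, 4 and 4 in the mural sub-clusters, summed over all libraries. The last of these is the sub-cluster whose leading genes include Lum and Dcn.

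Between myofibroblasts and fibroblasts 0 of the 8 members were called by edgeR, with 0 also at an unadjusted p under 0.05 and 0 by DESeq2, beside 19.8% of all genes. The 95% intervals of the log2 difference ran from −0.57 to 0.29 for Hes1, from −0.61 to 0.40 for Notch1 and from −0.11 to 0.65 for Notch2. Of the other pathway genes 7 rose and 3 fell in myofibroblasts, beside 10.7 and 9.1% of all genes. Dlk1 was the largest of these changes and was lower in myofibroblasts by 5.37 ± 0.71 on the log2 scale (adjusted p = 5.55e-07), with 2.16 to 15.1 CPM in fibroblasts.

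Fibroblasts and myofibroblasts together differed from the 3 urothelial layers in 5 of 8 members, beside 79.5% of all genes. Jag1 was 7.78-fold lower in stromal cells (−2.96 ± 0.12, adjusted p = 5.12e-22), Notch3 7.09-fold (−2.83 ± 0.22, adjusted p = 5.17e-14), Notch1 6.98-fold (−2.80 ± 0.15, adjusted p = 1.02e-18) and Jag2 6.13-fold (−2.62 ± 0.23, adjusted p = 1.08e-12). Hey1 was higher in stromal cells (2.60 ± 0.46, adjusted p = 3.92e-06), on 0 to 29 UMIs a library. Hes1 differed by 0.21 (95% interval −0.06 to 0.47) and Notch2 by −0.06 (95% interval −0.28 to 0.17). Hes1 was called higher in stromal cells in 3 alternatives (adjusted p from 0.0207 to 0.0435) and Notch2 lower in 2 (adjusted p = 0.000743 and 0.0282). Dll4 did not pass here and was lower in 2 alternatives, without acute replicate 2 (−3.57 ± 1.42, adjusted p = 0.0253) and with clusters formed without integration (adjusted p = 0.0425). Of the other pathway genes 14 rose and 18 fell, beside 39.4 and 40.2% of all genes. The largest changes were those of Fhl1 (4.46 ± 0.13), Numbl (3.38 ± 0.12) and Dlk1 (3.12 ± 0.96), higher in stromal cells, and of Hes2 (−4.41 ± 0.71). Nrarp was lower in stromal cells by 2.86 ± 0.15 (adjusted p = 4.50e-19).

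Within the vessels, endothelial cells were split into 7 sub-clusters and mural cells into 4, and 2 of these were given a name from fixed markers. These values describe single sub-clusters, some of them with most cells from 1 library, and no test was made. The arterial-like sub-cluster of 19 cells had the highest Dll4 (324 CPM, 16 UMIs), Hey1 (324 CPM, 16 UMIs) and Jag2 (182 CPM, 9 UMIs). The venous-like sub-cluster of 172 cells, of which 149 came from acute replicate 2, had 32.7 CPM of Dll4 and 11.9 CPM of Hey1. An unnamed sub-cluster of 158 cells led by Gpihbp1 and Rgcc, with 137 from acute replicate 2, lay between them with 156 CPM of Dll4 and 113 CPM of Hey1, and it had 1250 CPM of Hes1.

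Notch3 in the endothelial class lay mostly in 1 sub-cluster of 35 cells led by the mural genes Rgs5, Cox4i2 and Higd1b, which held 21 of the 31 endothelial Notch3 UMIs. All 16 endothelial Notch3 UMIs of healthy replicate 1 were in that sub-cluster. Notch3 was itself among the leading genes of that sub-cluster. Leaving it and a sub-cluster led by collagen genes out, as an alternative chosen after seeing the data, therefore left healthy replicate 1 with 0 endothelial Notch3 UMIs by construction. In mural cells Notch3 was between 287 and 479 CPM in every sub-cluster. The lowest was the 1 led by urothelial genes, and the highest was 1 of 40 cells whose leading genes include Fcer1g, Pf4, Lum and Dcn, known in immune cells and fibroblasts. The latter also had the highest mean standardised level of 6 pericyte markers among the mural sub-clusters (1.00, against −0.08 or lower).

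**Figure D3:**
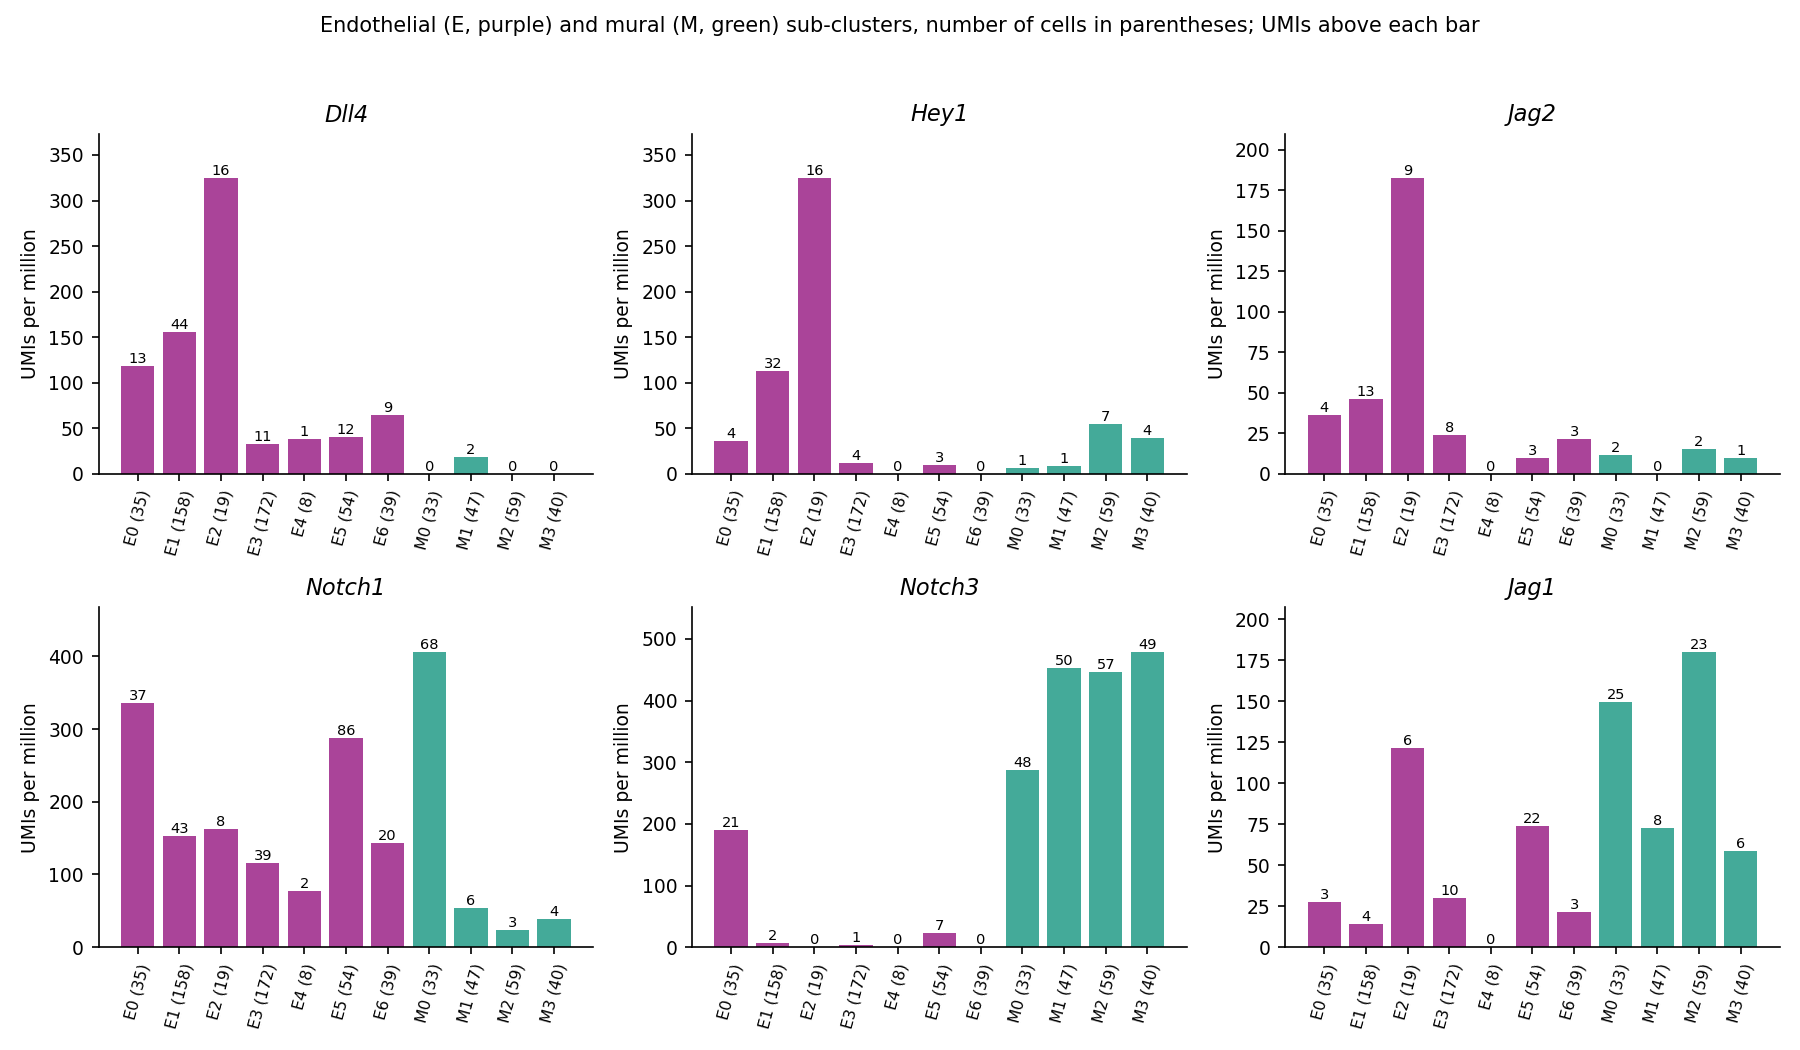
Level (CPM, bars from 0) of 6 members in the 7 endothelial (E0 to E6) and 4 mural (M0 to M3) sub-clusters, summed over libraries, with the UMIs behind each bar above it. Dll4, Hey1 and Jag2 are highest in E2, the arterial-like sub-cluster, and Notch3 is high in M0 to M3 and in E0, which was led by mural genes.

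Injury was compared within 6 classes, each against healthy, in fits without a library block. Mural cells were not compared, because no healthy or chronic library held 20 of them. For endothelial cells the healthy group was 1 library, and for fibroblasts the chronic group was 1 library, whose spread was then taken from the other groups. The acute and chronic comparisons share the healthy libraries. In bulk sums of a class, fewer cells of a kind within the class and less RNA per cell cannot be told apart.

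Of 36 tests of a member in a class, edgeR called 0 after acute and 0 after chronic injury, with 1 and 5 at an unadjusted p under 0.05, and DESeq2 also called 0. Over all genes 0.0133% of 60123 tests were called after acute and 0.0266% after chronic injury, so a low number of calls was general in these fits, which hold no term for batch. By class, these were 0.0893 and 0.25% of the genes tested in endothelial cells, 0.0175% in fibroblasts after each injury and 0.013% in myofibroblasts after acute injury, and 0% in the others. These shares moved between the alternatives, most of all in endothelial cells after chronic injury, where up to 469 genes were called. The median half-width of the 95% intervals of the members was 0.78 for acute and 0.86 for chronic injury on the log2 scale. These intervals are a normal multiple of the SE and are too narrow for so few libraries. That of Notch1 in basal cells after acute injury ran from 0.045 to 1.31, although its unadjusted edgeR p was 0.0676. Among the other pathway genes 0 were called in either injury in any of the 6 classes, with at most 4 at an unadjusted p under 0.05 in 1 class.

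**Figure D4:**
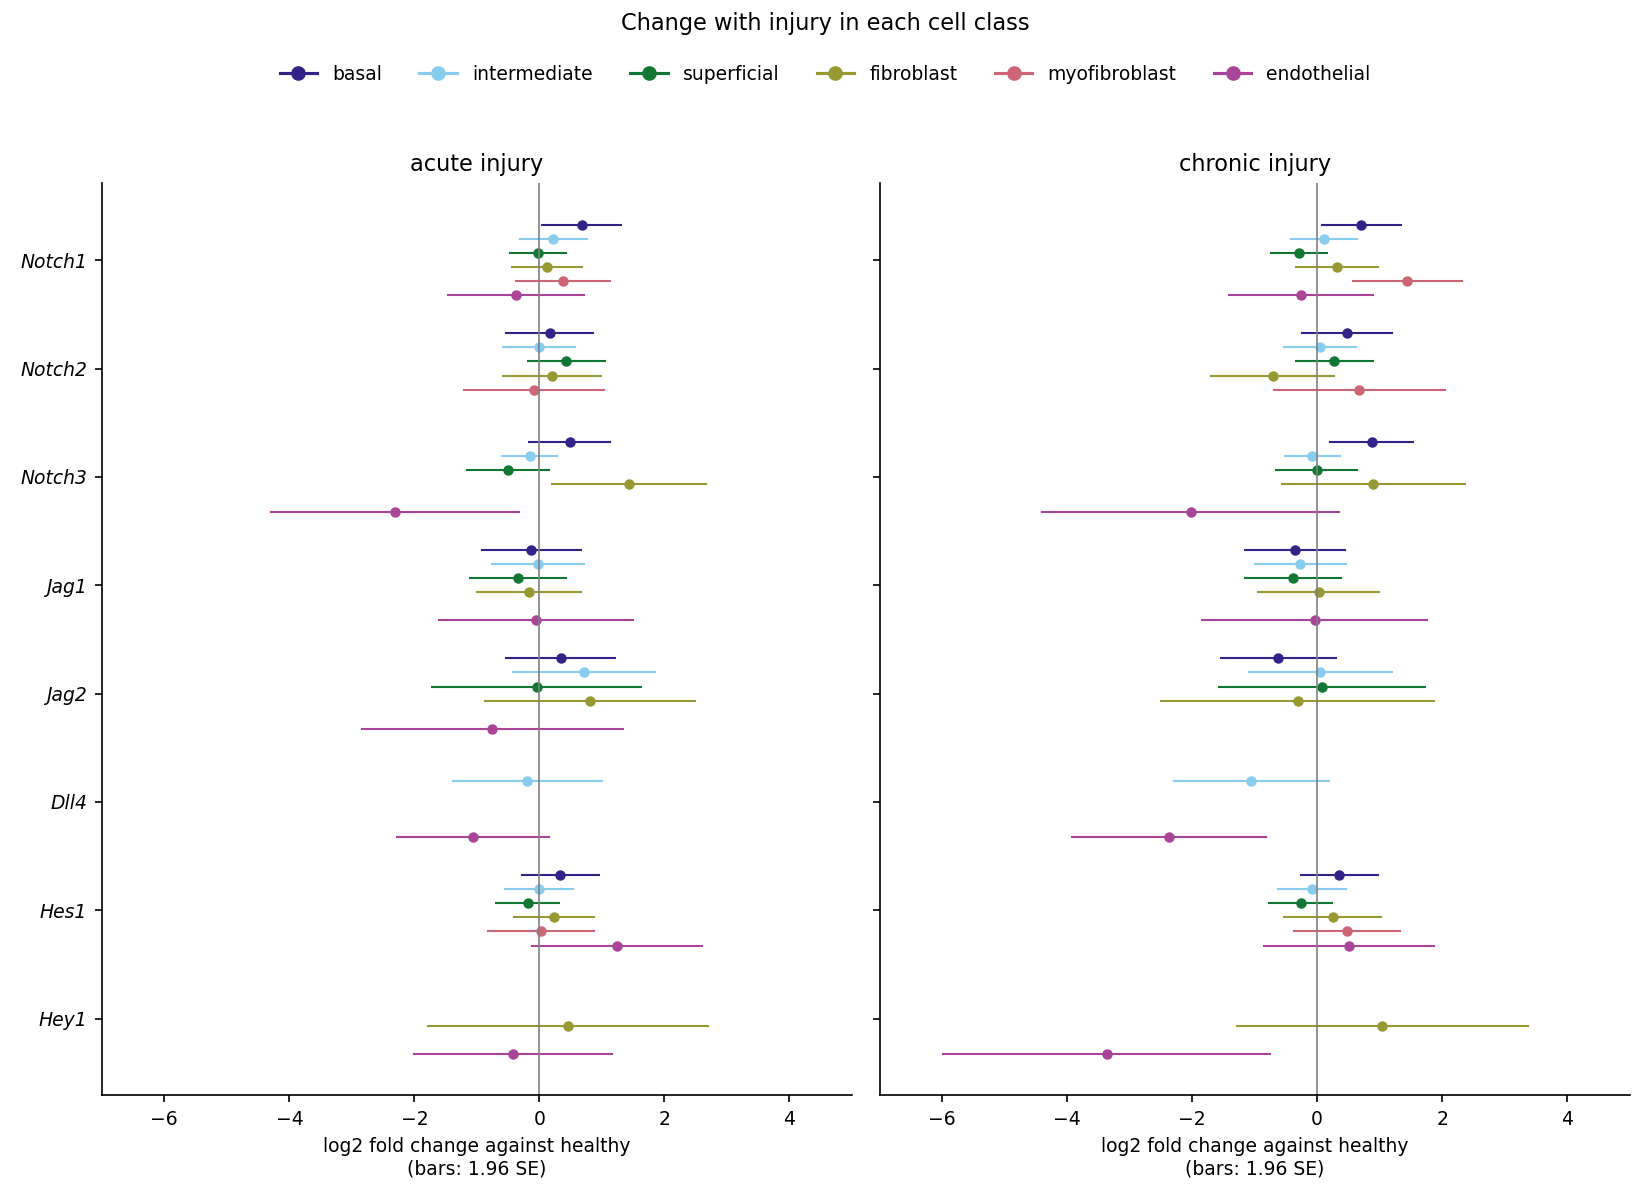
Log2 difference of each member from healthy after acute and chronic injury in 6 classes. Bars show 95% intervals from a normal multiple of the SE, which are too narrow for so few libraries. Pairs with 0 UMIs in the injured libraries are not drawn. No pair passed the test, and the widest bar drawn belongs to Hey1 in endothelial cells after chronic injury, which rests on 1 UMI in the chronic libraries.

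The lowest p-values after chronic injury were in endothelial cells and myofibroblasts, and without a replicate block none of them passed the adjustment. Dll4 in endothelial cells was 164 CPM in healthy replicate 1 against 55.5 and 10.5 CPM in the chronic libraries, which hold 5 UMIs together (−2.37 ± 0.79, adjusted p = 0.267). Both chronic libraries were lower than the 1 healthy library tested. Healthy replicate 2, with 15 endothelial cells, entered no test, and its Dll4 level lay between those of healthy replicate 1 and the chronic libraries. Jag2 in endothelial cells was 52.9 CPM in healthy replicate 1 (11 UMIs) and 0 UMIs of 167037 in the chronic libraries together (adjusted p = 0.350). The healthy level was 2.95-fold above the floor of 3 counts over the chronic group, which leaves out the counting error of the 11 healthy UMIs. Notch1 in myofibroblasts was 14.9 and 20.6 CPM in the healthy and 42.5 and 49.4 CPM in the chronic libraries, which hold 7 and 12 UMIs, and the groups did not overlap (1.44 ± 0.45, adjusted p = 0.784). With a replicate block in which the numbers of the chronic libraries were swapped, chosen after seeing the data, Dll4 (−2.85 ± 0.73, adjusted p = 0.0103) and Hey1 (−4.03 ± 1.29, adjusted p = 0.0435) were called lower in endothelial cells, beside 469 of all 5597 genes. The chronic value of Hey1 rests on 1 UMI, and with the block as numbered 0 members were called.

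The endothelial libraries also differed in their other content. The summed level of the 9 endothelial markers was 7344 CPM in healthy replicate 1, 3804 and 6518 CPM in the acute and 4012 and 2105 CPM in the chronic libraries. The 9 urothelial markers in the same cells summed to 1651 CPM in healthy replicate 1, 5588 and 3080 CPM in the acute and 8636 and 8094 CPM in the chronic libraries. In basal urothelial cells these markers summed to between 7364 and 11775 CPM, a range that holds both chronic endothelial values. Capillary markers summed to 1030 CPM in healthy replicate 1, 298 and 1362 CPM in the acute and 97.2 and 84.2 CPM in the chronic libraries. The sub-cluster led by haemoglobin and urothelial genes held 6 of the 51 endothelial cells of healthy replicate 1. It held 17 of 48 and 5 of 321 in the acute and 8 of 27 and 14 of 23 in the chronic libraries. The sub-cluster led by Gpihbp1 and Rgcc held 13 cells of healthy replicate 1, 3 and 137 of the acute and 1 and 0 of the chronic libraries. The part of these differences in the values of Dll4 and Jag2 was not tested.

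After acute injury the lowest p-value was that of Notch3 in endothelial cells, with 77.0 CPM in healthy replicate 1 against 18.9 and 11.5 CPM (−2.31 ± 1.01, adjusted p = 1.00). The healthy value rests on the 16 UMIs of the sub-cluster led by mural genes described above, and the mural markers in these endothelial cells summed to 982 CPM in healthy replicate 1 against 151 and 181 CPM in the acute libraries. Notch3 in fibroblasts was 1.97 and 2.63 CPM in the healthy and 4.85 and 7.20 CPM in the acute libraries, on 5 to 20 UMIs a library (1.43 ± 0.62, adjusted p = 1.00). Notch1 in basal cells was 166 and 231 CPM in the healthy and 394 and 226 CPM in the acute libraries, which overlapped (0.68 ± 0.32, adjusted p = 1.00).

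Whether the step between layers changed with injury was tested as an interaction over the 3 layers. No member was called, beside 0% of 12226 genes for the basal step after either injury and 0.221 and 0.00818% for the superficial step after acute and chronic injury. The lowest p-value was that of Notch3 for the basal step after chronic injury (0.93 ± 0.19, adjusted p = 0.446). In the healthy libraries Notch3 was 22.9 and 18.1 CPM in basal against 46.4 and 39.0 CPM in intermediate cells. In the chronic libraries it was 27.7 and 45.0 CPM in basal against 35.1 and 45.0 CPM in intermediate cells, so the layers were closer there than in either healthy library. In the acute libraries it was 36.2 and 19.7 CPM in basal against 45.5 and 30.3 CPM in intermediate cells (0.62 ± 0.18, adjusted p = 1).

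Cycling urothelial cells, which were kept out of the layers, carried the same members. Notch1 lay between 157 and 428 CPM in them, Jag1 between 50.8 and 109 CPM and Hes1 between 553 and 931 CPM. The highest Notch1 value was in acute replicate 1, which also had the highest Notch1 in non-cycling basal (394 CPM) and intermediate cells (280 CPM).

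An unnamed urothelial sub-cluster stood apart in Notch2 and Jag1. Its leading genes were Slc39a1, Abhd2, Actb and Rpgrip1, and the stromal genes Cxcl14, Car3 and Col1a1 were also among those raised in it, so that it was given no layer. It made up 1.02% of the urothelial cells of healthy replicate 2 and 16.3% of those of acute replicate 2. Over all its cells Notch2 was between 71.7 and 139 CPM with a median of 95.1, above the highest library of each of the 15 other urothelial sub-clusters (at most 48.3 CPM). Jag1 had a median of 192 CPM in it, and the next highest median among the sub-clusters was 122 CPM. The median depth of this sub-cluster, 5854 UMIs a cell, was lower than that of each of the 15 others. In the clustering of all cells, the cluster led by the same genes had 11.1% called doublets. The other urothelial clusters had at most 9.80%. What the cells of the unnamed sub-cluster are was not tested.

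**Figure D5:**
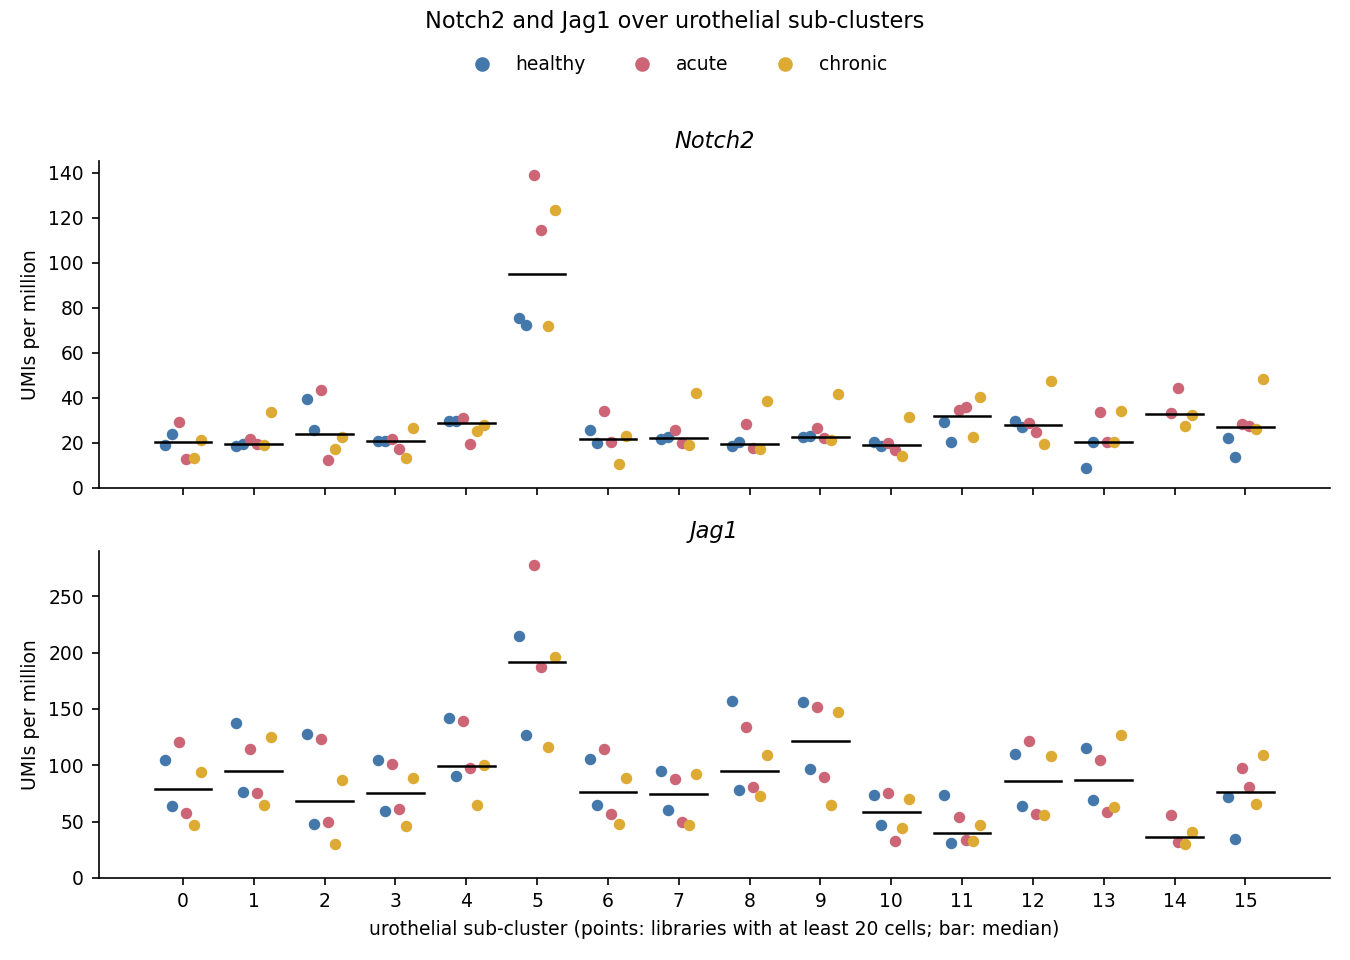
Level (CPM) of Notch2 and Jag1 in each of 16 urothelial sub-clusters, with 1 point per library. In sub-cluster 5, the unnamed one, Notch2 lies between 71.7 and 139 CPM, above all points of the other sub-clusters, and Jag1 has its highest median.

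The genes whose levels were most like those of each member were taken over 36 sums (those of at least 20 cells of the 7 classes compared) and 8905 genes, or 8906 for Hey1, as a description. These sums share libraries and differ in depth. For Dll4 they were Ushbp1 (Pearson r = 0.973), Tmem255b (0.969) and Upp1 (0.964). Notch1 was most like Adam10 (0.939), which encodes a protease that cleaves Notch receptors, followed by Mast4 (0.935), and Jag1 was most like Vps37b (0.944). Vezt (0.865) and Foxc1 (0.849) were among the genes most like Notch3, and Hey1 was most like Cdc42se2 (0.871). Notch2 and Jag2 reached 0.825 with Rrn3 and 0.816 with Lsm8. For Hes1 no gene reached the limit of 0.8.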

How the data were processed

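The 6 tables hold UMI counts per gene and cell, deposited by the authors, who aligned the reads to mm10 with Cell Ranger and removed mitochondrial and ribosomal genes and cells of low quality in their own analysis. The tables still listed mitochondrial and ribosomal genes, and the last line of 1 table was incomplete and was left out. The members and gene lists were chosen with earlier results of these data known.

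The filter kept cells above 500 genes whose mitochondrial share of UMIs was below 10%. Doublets were scored per library and the highest-scoring 0.8% per 1000 cells removed, because the automatic threshold marked at most 7 cells a library, and a cluster of 1834 cells rich in doublets was left out. Libraries were normalised and integrated with sctransform 0.4.2 and Seurat 5.3.0 (3000 genes, members and pathway genes kept out, 30 components, resolution 0.8), and clusters were named from fixed markers. Counts were summed per library and class (at least 20 cells) over 14338 genes and tested with edgeR 4.0.16 (TMM, filterByExpr, quasi-likelihood, Benjamini-Hochberg over all genes, 0.05). Class comparisons had the library as a block. Floors cover only the counting error of the sum at 0 UMIs, and not that of the level set against it or the spread between libraries. The 95% intervals, a normal multiple of the SE, rest on the spread between libraries and are too narrow where libraries are few. On simulated data 99.5 to 100% of 200 genes changed 4-fold were recovered in the 3 fits simulated, with 17, 7 and 6 false calls. These data had a fixed spread and no batch, and the endothelial fit was not simulated. They therefore do not give the power to find changes of the members after injury.

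Levels of all 9 members were described. Fold changes are given for members that passed and for the 3 lowest p-values per injury. Other pathway genes are named from the 5 with the largest change in a comparison, not always all of them. Up to 3 genes with r of at least 0.8 are named as most like a member. A gene that this rule gives is not reported here. Replicate numbers were checked as pairs. Deviations of same-numbered libraries correlated at 0.27 to 0.44 between healthy and acute and at −0.19 to −0.50 with chronic, so the numbers as given were not taken to pair libraries. The paper states that its samples were handled and sequenced in batches, and which libraries shared one is not given in the sources used here. The signs above go with the pairing of the crossed block, and whether it follows the batches was not tested. Alternatives were DESeq2 1.42.0, RLE factors, no filter on low counts, other cell filters, doublets kept, clusters without integration, 10 cells, cycling cells kept, blocks and each library left out.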

Additional observations from a re-analysis of the deposited data

Results flagged for a closer look

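Notch2 in the unnamed urothelial cells was singled out because these cells entered no comparison of layers and their lowest library was above every library of the 7 classes compared. Their lowest library was 70.7 CPM (chronic replicate 1) and their highest was 139 CPM (acute replicate 1), whereas the highest library of these classes was 65.9 CPM (myofibroblasts of chronic replicate 2, on 16 UMIs). Among cells that entered no comparison, macrophages had between 19.8 and 48.7 CPM in 5 libraries and 106 CPM in chronic replicate 2 (35 UMIs), above the lowest library of the unnamed cells. These cells were 54 to 778 per library, and their place in the urothelium was not tested.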

How the results depend on the processing

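Counts of members called stayed within 1.5 times the main count in 152 of 155 alternatives. They moved to 2 for basal against intermediate cells without the library block (4 in the main fit), to 8 for stromal against urothelial cells with clusters formed without integration (5 in the main fit), and to 2 after chronic injury with a crossed replicate block (0 in the main fit). The crossed pairing and the 2 settings that left out or put back sub-clusters were chosen after seeing the data. With same-numbered libraries as a replicate block, 0 members were called after acute and 0 after chronic injury, and with the crossed block Dll4 in endothelial cells after chronic injury had −2.85 ± 0.73 (adjusted p = 0.0103). With each library left out in turn, counts were 0 to 0 for both injuries and for myofibroblasts against fibroblasts, 4 to 5 for basal against intermediate, 6 to 6 for superficial against intermediate, 5 to 5 for basal against superficial, 5 to 5 for endothelial, 2 to 3 for mural and 5 to 6 for stromal against urothelial. Of 476 recomputed fold changes of called members, 467 kept their call, 9 lost it and 0 reversed, and the 9 are given with their comparisons. The causes were not tested. Calls over all genes fell from 3482 to 1891 for endothelial and from 1450 to 300 for mural cells without acute replicate 2. Without the library block they fell from 4675 to 1434 for basal and from 6419 to 3127 for superficial against intermediate cells, and from 2621 to 1485 for myofibroblasts against fibroblasts. Clusters formed without integration left 175 intermediate and 49 basal cells in acute replicate 2. Endothelial sums held 72026 to 607133 UMIs per library, and in the injury tests the filter on low counts kept 7 members in endothelial cells and 3 in myofibroblasts.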
